A study of Mus musculus with 6 samples.

Results

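Cytosolic ribosomal protein (RP) genes were taken as every gene symbol of the count tables made of Rpl or Rps and a number, with at most the short endings of the family such as a, x or l, plus the stalk genes Rplp0, Rplp1 and Rplp2 and the laminin receptor gene Rpsa, without symbols marked as pseudogenes. This gave 83 of 32285 genes, 51 of the large and 32 of the small ribosomal subunit. The samples were pancreatic tumours grown for 4 weeks after KPC cells, taken from a mouse model of pancreatic cancer, had been injected into the pancreas of C57BL/6 mice aged 6 to 8 weeks, and dissociated for droplet-based single-cell RNA sequencing. The injected cells carried an empty vector (OE-Vector, 3 samples) or an overexpression construct of Mlkl (OE-MLKL, 3 samples), a pseudokinase gene of necroptosis, while the host cells of the tumour carried neither. Count matrices of 4 libraries were analysed here, OE-Vector 1 and OE-MLKL 1, 2 and 3, and those of OE-Vector 2 and 3 were not analysed here.

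Ribosomes make protein, and their large and small subunits are assembled from RPs and ribosomal RNA in the nucleolus before working together in the cytoplasm. RP mRNAs are among the most abundant of growing cells, and many begin with a terminal oligopyrimidine tract, a run of C and T read by the growth-sensing mTOR pathway. A few RP genes have paralogs, whose protein takes the place of its partner in some ribosomes or tissues, among them Rpl3l of muscle and Rpl10l and Rpl39l of testis. Mature neutrophils make little protein and hold little RNA, whereas activated lymphocytes and dividing cancer cells build ribosomes.

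The libraries held 150591289 UMIs (molecular tags that count each captured transcript once) for OE-Vector 1, then 162204859, 169978362 and 169932886 for the OE-MLKL libraries by number. Where 4 values of a gene, share or ratio are given for 1 class, they keep this order of libraries. Each library was made from the cells of 1 tumour. Between 15382 and 23063 barcodes per library were taken as cells, and cells were placed in classes by marker genes that included no RP gene. In the 4 main classes the summed level of the class's own markers ran from 79335 to 87934 CPM (UMIs scaled to a common library total) in neutrophil-like, from 32439 to 39974 CPM in macrophage-like, from 2138 to 3971 CPM in cancer-like and from 4303 to 5784 CPM in T cell-like cells. The 10 neutrophil markers summed to between 393 and 1301 CPM in the other 3 classes, the macrophage markers to between 524 and 2558 CPM outside macrophage-like cells, with the highest values in neutrophil-like cells, and the 12 cancer markers to between 117 and 394 CPM in the classes that were not cancer-like. The T cell-like class also held NK cell markers, at 3182, 405, 733 and 1610 CPM in the 4 libraries, so that OE-Vector 1 was the highest, and the part of these cells in the group comparisons was not tested. Pairs of libraries shared between 90 and 163 barcodes of at least 500 UMIs, each counted as a separate cell. OE-MLKL 3 stood apart, with mitochondrial genes at 15.2% of the free RNA, the UMIs of barcodes with at most 100, against 7.39 to 8.61% in the other libraries, and with Malat1, a nuclear RNA, at 3.25% of cancer-like UMIs against 1.08 to 1.45%. Mlkl itself stood in cancer-like cells at 16.4, 8.61, 12.9 and 19.7 CPM. The libraries labelled OE-MLKL thus lay on both sides of the library labelled OE-Vector in the targeted gene, and whether reads from the construct could be counted is not given in the sources used here.

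RP genes gave 20.3% of all UMIs of the 4 main classes, and their share differed several-fold between cell classes. Neutrophil-like cells had the lowest share, 5.89, 10.8, 9.08 and 5.31% of UMIs (7.77% ± 2.62, SD, n = 4). T cell-like cells had 23.5, 32.1, 27.5 and 20.3% (25.9% ± 5.10, SD, n = 4). Within each library the share of T cell-like cells was between 2.97 and 3.98 times that of neutrophil-like cells, and no other class had a library at or below the highest neutrophil-like value.

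Macrophage-like cells lay between these, with 15.5, 22.4, 18.4 and 12.99% of UMIs (17.3% ± 4.04, SD, n = 4). Cancer-like cells had 22.7, 24.3, 23.0 and 16.4% (21.6% ± 3.53, SD, n = 4). Across libraries the cancer-like, macrophage-like and T cell-like ranges overlapped, but within every library T cell-like cells were above cancer-like cells, by 1.04 to 1.32 times, and cancer-like cells above macrophage-like cells, by 1.08 to 1.46 times. The first order was not kept in OE-Vector 1 among cells with under 5% mitochondrial UMIs, where T cell-like cells had 23.2% and cancer-like cells 24.4%. B cell-like cells, 46 to 137 per library, had 25.8% ± 5.16 (SD, n = 4), which did not differ from T cell-like cells beyond the spread. Free RNA had 17.2% ± 2.61 (SD, n = 4), above every neutrophil-like value. The exact 95% binomial intervals cover counting error only and were narrow, the widest of the main classes running from 32.1 to 32.2% in T cell-like cells of OE-MLKL 1.

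**Figure D1:**
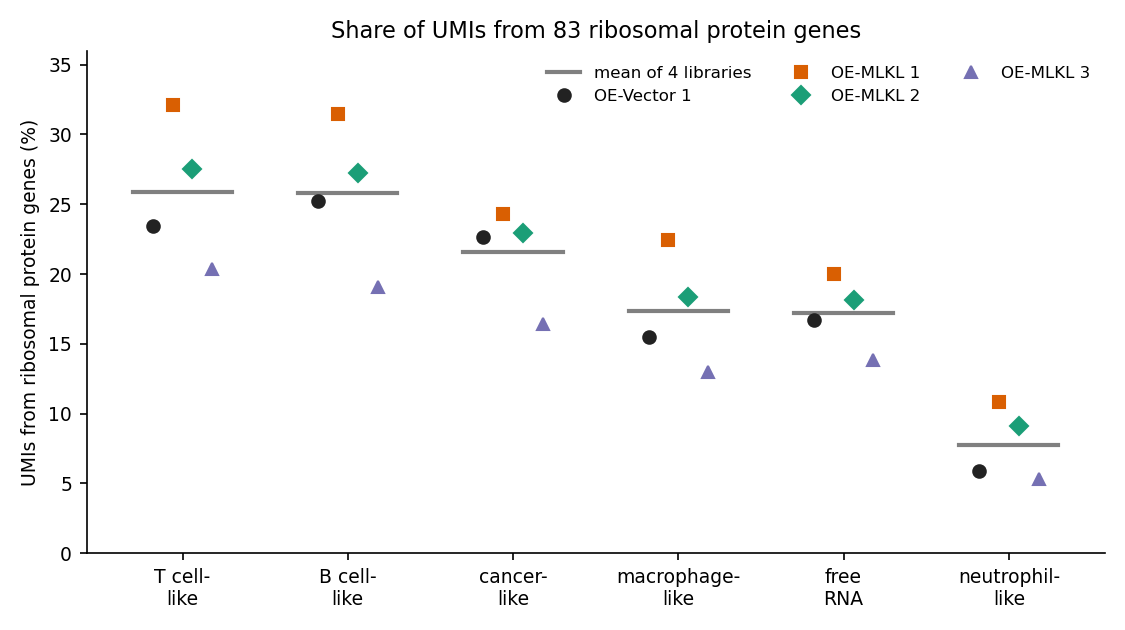
Share of UMIs from RP genes (vertical axis, percent) in each of 4 libraries (symbols) for 5 cell classes and free RNA, with the mean over libraries as a grey line. Neutrophil-like cells lie lowest in every library, at 5.31 to 10.8%, and OE-MLKL 1 is highest and OE-MLKL 3 lowest in all 6 columns.

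The share also moved with the library. OE-MLKL 1 was highest, followed by OE-MLKL 2, OE-Vector 1 and OE-MLKL 3, in 10 of 12 populations, free RNA included, and the other 2 populations differed in the order of the last pair only. The OE-Vector library thus fell inside the range of the OE-MLKL libraries in all 4 main classes. The mean of OE-MLKL minus OE-Vector was 2.51 percentage points in neutrophil-like, 2.41 in macrophage-like, -1.43 in cancer-like and 3.20 in T cell-like cells, each below the SD over the OE-MLKL libraries of 2.81, 4.73, 4.23 and 5.93 points. Single libraries set these differences. Without OE-MLKL 3 the cancer-like difference was 0.985 points, of the opposite sign, and the others were 4.05, 4.88 and 6.36 points in neutrophil-like, macrophage-like and T cell-like cells. Without OE-MLKL 1 these 3 were 1.30, 0.173 and 0.470 points, and the cancer-like difference was -2.96 points, as against -2.30 without OE-MLKL 2. With 1 OE-Vector library, a group effect and the library cannot be told apart.

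The share varied with UMIs per cell, in opposite directions in 2 classes. When cells of a class were split in each library into 4 equal bins by UMIs, the median share of neutrophil-like cells was highest in the shallowest bin in all 4 libraries, 11.9% against 9.30% in the deepest bin of OE-MLKL 1 and 5.79% against 4.38% in OE-MLKL 3. In T cell-like cells the shallowest bin was the lowest in all 4 libraries, with 15.5% against 22.5% in the deepest bin of OE-MLKL 3. Neutrophil-like cells had a median of 745 to 1426 UMIs and cancer-like cells 12275 to 25462, and the part of depth in the differences between classes was not tested.

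On a scale set by all genes (TMM), this difference in share carried nearly every member with it. With edgeR's quasi-likelihood test and Benjamini-Hochberg adjustment, 77 of 82 tested members were lower in neutrophil-like cells than in the mean of the other 3 classes, where 38.2% of all 14315 genes tested were lower, and 76 of 82 were higher in T cell-like cells, where 32% of all genes were. In the opposite directions, 2 members were higher in neutrophil-like cells (33.4% of all genes) and 2 lower in T cell-like cells (34.7%). The median member differed by -1.15 on the log2 scale in neutrophil-like cells and by 0.73 in T cell-like cells, beside medians over all genes of -0.15 and -0.06. In macrophage-like cells 42 members were higher and 3 lower (32 and 31.3% of all genes), and in cancer-like cells 50 were higher and 7 lower (39.5 and 36.2% of all genes). Single members were therefore compared relative to the RP total, in which each class sum was scaled by its own RP UMIs.

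Relative to the RP total, the composition was similar between classes for most members. Of 82 members tested, 76 differed by less than 2-fold in all 4 class contrasts, 13 passed the test in no class and 12 passed it in all 4. Of all 14315 genes 21.6% stayed under 2-fold on this scale, 2.23% passed in no class and 32.9% passed in all 4, although centring on the RP total itself favours small values for its members, and with TMM 18 members stayed under 2-fold (32.3% of all genes). The counts themselves carry little, because the scaling shifts the genes outside the family. In neutrophil-like cells 21 members were higher and 31 lower, where 69.5% of all genes tested were higher and 6.96% lower. The other classes had 17 higher and 14 lower in macrophage-like cells (24 and 40.1% of all genes), 20 and 22 in cancer-like cells (28.6 and 45.8%), while T cell-like cells had 22 higher and 18 lower (13.5 and 65.4%). Except for the members lower in neutrophil-like cells, 37.8% of those tested, and those higher in T cell-like cells, 26.8%, these shares lay at or below the background, and the sizes of single genes were read instead. Among the least variable members were Rpl24, Rps3a1 and Rps6, which differed by at most 0.07 on the log2 scale in any class. Over libraries of one class the median coefficient of variation of a member's part of the RP total was 8.80 to 11.6%, and over classes of one library it was 14.5 to 16.9%.

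**Figure D2:**
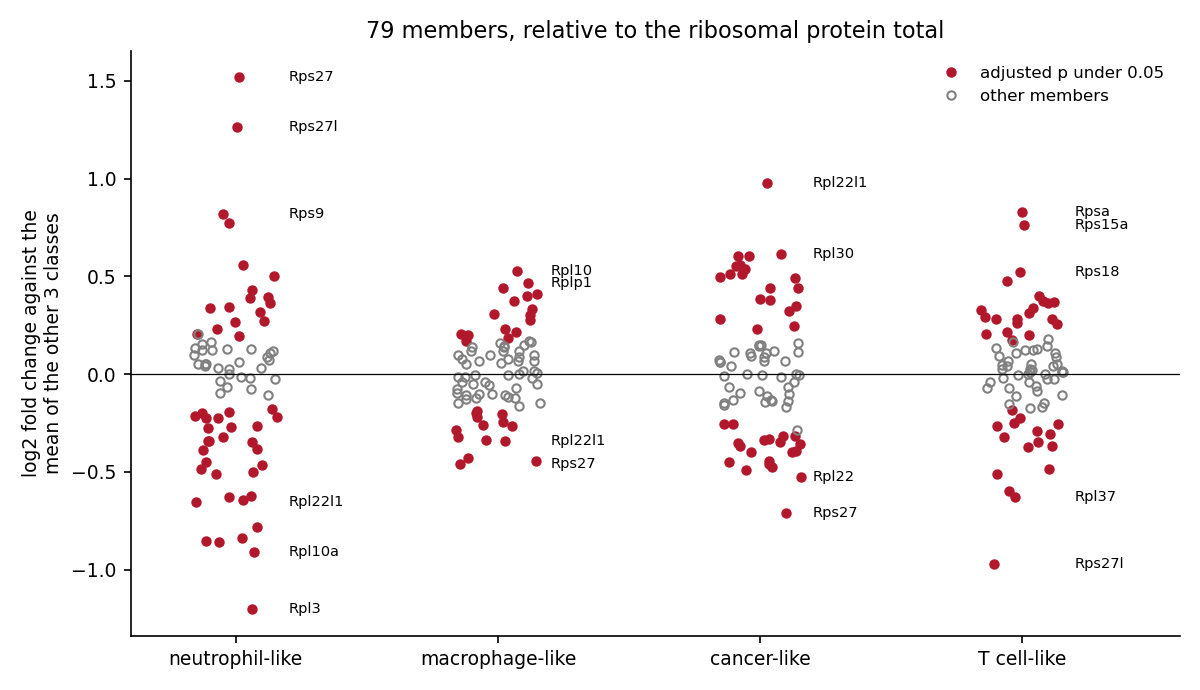
log2 fold change of 79 members with at least 100 CPM in a class of some library (vertical axis), relative to the RP total, for each class against the mean of the other 3 (columns); filled points passed edgeR's test at an adjusted p under 0.05. Neutrophil-like cells show the widest spread, from -1.20 for Rpl3 to 1.52 for Rps27, and the leading member of cancer-like cells is Rpl22l1 at 0.98.

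Neutrophil-like cells departed most from the common composition. Rps27 (ENSMUSG00000090733, GRCm38 chr3:90212522-90213651, minus strand), which encodes a zinc-finger protein of the small subunit, made up 2.40, 3.33, 2.51 and 1.95% of RP UMIs. In the other 3 classes it lay between 0.680 and 1.18%, so that the groups did not overlap. It was higher by 1.52 ± 0.07 on the log2 scale (SE; edgeR adjusted p = 1.84e-11). Its paralog Rps27l (chr9:66946086-66949516, plus strand) made up 0.355, 0.411, 0.396 and 0.296% against at most 0.264% elsewhere and was higher by 1.26 ± 0.13 (edgeR adjusted p = 1.57e-07). Other small-subunit members with no overlap were Rps9 (0.82 ± 0.09) and Rps25 (0.77 ± 0.07), followed by Rps27a (0.39 ± 0.07), whose protein is made as a fusion with ubiquitin. These rises hold within the RP total only, since with TMM Rps9, Rps25 and Rps27a were lower, at -0.37, -0.40 and -0.79, while Rps27 stayed higher at 0.34 and Rps27l stood at 0.10. The large-subunit members Rpl38, Rpl41 and Rplp2 also lay above every value of the other 3 classes relative to the RP total. They were not called higher with TMM. Rps29 was the most abundant member in neutrophil-like cells, at 3.94% ± 0.338 of RP UMIs (SD, n = 4).

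The members that fell in neutrophil-like cells were led by Rpl3 (ENSMUSG00000060036, chr15:80077791-80091868, minus strand), a core protein near the peptidyl transferase centre, with 0.426, 0.288, 0.373 and 0.531% of RP UMIs. Every value lay below the other classes, which ran from 0.789 to 1.05%, and the change was -1.20 ± 0.11 (SE; edgeR adjusted p = 4.32e-08). Rpl10a (-0.91 ± 0.09), Rpl12 (-0.86 ± 0.08) and Rps4x (-0.85 ± 0.08) followed, with edgeR adjusted p = 7.81e-08, 3.7e-08 and 5.16e-08, and none overlapped the other classes. Rpl12 belongs to the base of the stalk that recruits translation factors. Rpsa, a small-subunit protein also known as a laminin receptor precursor, was lower by -0.78 ± 0.08. In all, 9 members lay above and 15 below every value of the other 3 classes among 82 tested, where 25.6% of all genes lay above and 0.307% below on this scale. On the CPM scale 1 member lay above and 58 below, beside 7.65 and 15.3% of all genes.

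The dissociation and stress genes Fos, Jun, Junb, Egr1, Hspa1a, Hspa1b, Dusp1 and Atf3 moved with this class. They summed to between 1.42 and 1.89% of UMIs in neutrophil-like cells against 0.159 to 0.956% in the other 3 classes. All 8 passed the test as higher (69.5% of all genes did) and 6 did with TMM (33.4%). In T cell-like cells 8 were lower (65.4% of all genes) and 7 with TMM (34.7%). Their part in the RP composition, and that of tissue handling, was not tested. Of the last 400 bases of Rpl3 and Rpl10a, 82.3% of the 90-base windows recurred in another annotated gene, none of them a gene of the count table, and 42.4% of those of Rps27 recurred in Rps27rt, which was counted at only 16.3 to 46.1 CPM in the 4 classes. Reads from these windows cannot be told apart by sequence.

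Macrophage-like cells differed less. Rplp1, an acidic protein of the stalk, made up 2.77, 2.43, 2.87 and 2.56% of RP UMIs, above all 12 values of the other classes, which reached 2.20%. It was higher by 0.47 ± 0.07 on the log2 scale (SE; edgeR adjusted p = 1.98e-05), while the stalk base Rplp0 was lower by -0.19 ± 0.08 and Rplp2 stood at 0.06 ± 0.08. Rpl10, a late-joining large-subunit protein, was higher by 0.53 ± 0.09 and Rps29 by 0.44 ± 0.06. Only Rplp1 lay above every value of the other classes, 1.22% of members tested, beside 3.07% of all genes. Only Rps10 lay below, again 1.22% of members, beside 1.34% of all genes. The lowest values against the mean of the other 3 classes were those of Rps27 (-0.46 ± 0.08), Rpl21 (-0.44 ± 0.08), Rpl37 (-0.43 ± 0.07) and Rpl22l1 (-0.34 ± 0.09). The mean that Rps27 was set against holds the high neutrophil-like value, and its own 0.909% of RP UMIs lay above the cancer-like 0.797% and near the T cell-like 0.952%. Rpl22l1, at a mean of 0.183%, lay above the neutrophil-like 0.158% and was set against a mean that holds the cancer-like 0.364%. Rpl37, at a mean of 1.48%, lay above the T cell-like 1.33%. With TMM Rpl22l1 was not called (-0.15). Fewer members were called here when 1 library was left out. The share of all genes called in those fits is not given here, so the change is not read as one of the members. The 46.3% of Rpl10 windows that recurred in the counted pseudogene Rpl10-ps3 make its level uncertain.

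Cancer-like cells were marked by Rpl22l1 (ENSMUSG00000039221, chr3:28805436-28807424, plus strand), the paralog of the RNA-binding large-subunit protein Rpl22. It made up 0.462, 0.353, 0.297 and 0.345% of RP UMIs, above the 0.123 to 0.262% of the other classes. Relative to the RP total it was higher by 0.98 ± 0.08 (SE; edgeR adjusted p = 3.41e-08). Rpl22 (chr4:152325742-152334071, plus strand) was lower by -0.53 ± 0.08 (edgeR adjusted p = 2.34e-05), with 0.377 to 0.468% against 0.457 to 0.750%, so that OE-MLKL 1 overlapped the lowest neutrophil-like values.

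Large-subunit members led the other rises in cancer-like cells. Rpl28 made up 2.33, 1.66, 1.66 and 1.86% against at most 1.54% elsewhere (0.61 ± 0.07), and Rpl6 made up 1.56, 1.67, 1.78 and 2.08% against at most 1.49% (0.61 ± 0.07). Rpl30, which was higher by 0.61 ± 0.07, ranged from 1.72 to 2.49% and overlapped the highest neutrophil-like value of 1.75%. Rplp0 was higher by 0.49 ± 0.07 and Rplp2 lower by -0.40 ± 0.08, so that the stalk members moved in opposite directions here as well. Rps27 was at -0.71 ± 0.08 against a mean that holds the high neutrophil-like value, with 0.683, 1.04, 0.782 and 0.680% in the 4 libraries, and overlapped macrophage-like and T cell-like cells. Of the members tested, 8 lay above every value of the other classes and 3 below, or 9.76 and 3.66%, beside 5.99 and 4.83% of all genes. On the CPM scale 1 lay above and 0 below, beside 16.7 and 5.42% of all genes.

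The balance of the subunits also set cancer-like cells apart. Small-subunit members made up 42.2, 42.2, 42.1 and 42.2% of RP UMIs. Neutrophil-like, macrophage-like and T cell-like cells ranged from 44.5 to 45.8% and did not overlap, and B cell-like cells ranged from 46.3 to 47.4%. Free RNA had 42.3% ± 0.234 (SD, n = 4), close to the cancer-like value of 42.2% ± 0.0471. The stalk genes Rplp0, Rplp1 and Rplp2 together gave 4.57 to 5.38% of RP UMIs in cancer-like cells and 4.94 to 5.75% in macrophage-like cells. These ranges overlapped, but within each of the 4 libraries the macrophage-like value was the higher.

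The largest rises in T cell-like cells after Rpl39l were those of Rpsa (ENSMUSG00000032518, chr9:120127689-120132369, plus strand) and Rps15a (chr7:118104372-118116188, minus strand). Rpsa made up 2.46, 2.24, 2.57 and 2.82% of RP UMIs, above the highest value of 1.79% in the other classes, and was higher by 0.83 ± 0.07 (SE; edgeR adjusted p = 6.26e-08). Rps15a, a small-subunit protein, made up 2.15, 2.18, 1.71 and 1.51%, against at most 1.46% elsewhere, and was higher by 0.76 ± 0.07 (edgeR adjusted p = 6.44e-08). Both stood above all 12 values of the other classes, although Rps15a was lowest in OE-MLKL 3 in every class. Members above every value of the other classes were 2.44% of those tested, beside 3.46% of all genes. On the CPM scale 9.76% of members lay above, beside 9.53% of all genes. Rps18 was higher by 0.52 ± 0.07, with 1.63 to 2.04% overlapping the cancer-like 1.70 to 1.90%, and 47.9% of its windows recurred in the counted genes Gm10260 and Gm11361.

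The falls in T cell-like cells were led by paralogs. Rps27l made up 0.138, 0.0935, 0.109 and 0.125% and was lower by -0.97 ± 0.14 (edgeR adjusted p = 1.71e-05). Its values overlapped the macrophage-like range, which began at 0.132%, and the mean it was set against holds the neutrophil-like 0.364%. Over the alternatives run its value ranged from -1.02 to -0.27, and the call did not hold in all of them. Rpl7l1, whose protein is linked to assembly of the large subunit, was lower by -0.94 ± 0.11 (edgeR adjusted p = 1.27e-06). Its 0.0168 to 0.0260% overlapped macrophage-like cells (from 0.0227%) and cancer-like cells (from 0.0240%). The mean it was set against holds the neutrophil-like 0.0699%, and over the alternatives run its value ranged from -0.99 to -0.24. Rpl37 fell by 0.63 ± 0.07 on the log2 scale relative to the RP total, with 1.24 to 1.49%, but stood at 0.08 with TMM, where the rest of the family rose. Rpl26 was the member below every value of the other classes, at 1.10 to 1.16% against 1.31 to 1.57%, but with TMM it was higher, by 0.39. Lying below every value held for 1.22% of members tested, beside 10.0% of all genes.

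The start sites of some of these members are shown because the run of C and T at the first transcribed base is the feature that the mTOR pathway reads in many RP mRNAs. Each line gives 30 bases on the sense strand from RefSeq (GRCm38.p6), 15 before and 15 from the annotated first base on, with a C or T run that spans the first base in capitals. Rps27 (chr3:90213634-90213663, minus), Rps15a (chr7:118116133-118116162, minus), Rps18 (chr17:33955651-33955680, minus) and Rpl28 (chr7:4792950-4792979, plus) hold such a run, of 7, 8, 9 and 8 bases from the first base on. Rpl22l1 (chr3:28805493-28805522, plus) and Rpsa (chr9:120127751-120127780, plus) have none that includes the annotated first base, although Rpl22l1 holds a run that begins just after it.
Rps27: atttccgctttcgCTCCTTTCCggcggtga
Rps15a: ctctctttctgccaTCTTCCCTCgccggtg
Rps18: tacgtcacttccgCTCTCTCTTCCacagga
Rpl28: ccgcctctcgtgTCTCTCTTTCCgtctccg
Rpl22l1: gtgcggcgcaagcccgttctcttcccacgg
Rpsa: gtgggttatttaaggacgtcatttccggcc

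At the annotated first base, members that departed in one class did not all hold a run, and another start site could change this. Of other members named above, Rps10, Rplp2 and Rps9 held runs of 10, 5 and 3 bases. Rpl12, Rps4x, Rps25, Rpl6, Rpl22, Rps27l and Rpl26 held none. Rps27, led by a tract, rose in neutrophil-like cells, while Rps15a and Rps18, also led by one, were called higher in T cell-like cells together with Rpsa, which has none at its annotated base. RefSeq promoters were found for 63 members. A run of at least 5 C or T from the first base stood at 25.4% of them, against 5.28% of all 27025 genes in the table. With a looser rule, a C followed by at least 4 C or T within 5 bases before to 11 after the start, the shares were 47.6 and 22.5%. On either strand within 250 bases before and 50 after the start, CCGGAAG was found for 41.3% of members and 9.93% of all genes, CTTTCC for 52.4% and 29.3%, ATGGCGG for 17.5% and 4.69%, and TATAAA for 11.1% and 15.7%. A match of letters is a description, not a bound site.

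The paralogs were compared with their partners within the same class sum, which removes the share of the family. Rpl22l1 gave 109, 75.4, 78.9 and 87.8 UMIs per 100 Rpl22 UMIs in cancer-like cells (87.7 ± 14.97, SD, n = 4). It gave 28.4 ± 1.84 in macrophage-like, 30.4 ± 6.66 in neutrophil-like and 33.8 ± 2.44 in T cell-like cells. The highest of these 12 values was 36.4, so that no cancer-like library overlapped another class, and free RNA lay between at 66.5 ± 5.79.

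Among the main classes, Rpl7l1 was highest in neutrophil-like cells instead. It gave 10.5, 7.89, 11.1 and 12.2 UMIs per 100 Rpl7 UMIs there, against 2.78 to 6.57 in the other 3 main classes, although the few B cell-like cells ranged from 1.67 to 10.4 and overlapped. Rps27l gave 14.8, 12.3, 15.8 and 15.1 UMIs per 100 Rps27 UMIs in neutrophil-like cells, although both genes were raised relative to the RP total. The ratio of Rps27l to Rps27 moved with the library, since OE-MLKL 1 was the lowest in all 4 classes, at 11.2 against 32.0 in OE-Vector 1 for macrophage-like cells.

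**Figure D3:**
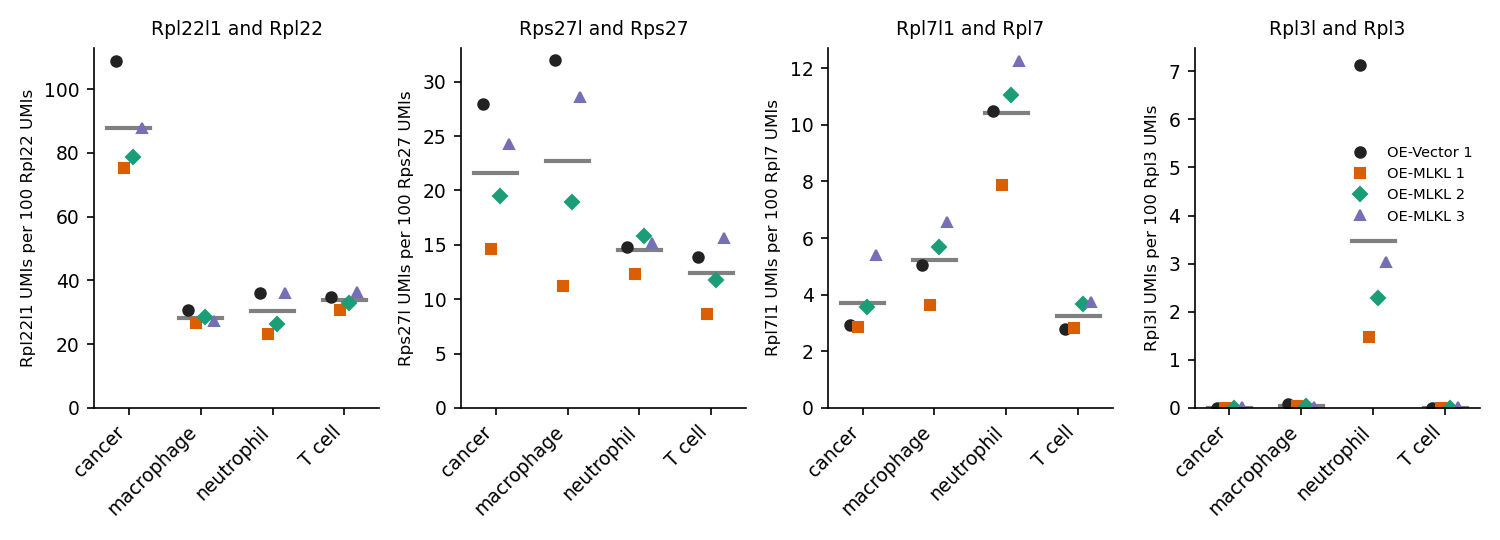
UMIs of 4 RP paralogs per 100 UMIs of the partner gene (vertical axes, from 0) in each library (symbols) and class (columns), with the mean over libraries as a grey line. Rpl22l1 is high in cancer-like cells only among these 4 classes, at 75.4 to 109, and Rpl7l1 and Rpl3l are high in neutrophil-like cells.

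Rpl3l (ENSMUSG00000002500, chr17:24727820-24736143, plus strand), a paralog known from heart and skeletal muscle, was counted in neutrophil-like cells by 154, 21, 58 and 96 UMIs, that is 17.9, 4.59, 7.75 and 8.53 CPM. The other classes had at most 20 UMIs in any library, in macrophage-like cells, and 0 or 1 in T cell-like cells. The class contrast was 6.93 ± 0.33 on the log2 scale (SE; edgeR adjusted p = 1.17e-11). It gave 7.13, 1.47, 2.29 and 3.02 UMIs per 100 Rpl3 UMIs there. The gene ends 499 bases before Msrb1 (chr17:24736642-24742778), on the same strand, and Msrb1, a methionine sulfoxide reductase gene, stood at 2816, 1472, 1606 and 1656 CPM in neutrophil-like cells against 63.9 to 600 CPM in the other classes. OE-Vector 1 was the highest library for both genes, and the part of Msrb1 reads in the Rpl3l counts was not tested.

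The testis paralogs were at or near 0. Rpl10l had 0 UMIs in every class sum, and Rpl39l had 157 in all. In T cell-like cells Rpl39l had 1, 2, 15 and 24 UMIs in the 4 libraries, in macrophage-like cells 13, 10, 13 and 57 and in cancer-like cells 1, 2, 1 and 3. Free RNA held 74, 73, 80 and 79 UMIs, or 0.561 ± 0.272 per 100 Rpl39 UMIs, more than the highest ratio of 0.240 in any class. The class contrasts of Rpl39l rest on these counts. They were 2.72 ± 0.47 in T cell-like and 2.01 ± 0.42 in macrophage-like cells. In neutrophil-like cells the contrast was 1.48 ± 0.60 and in cancer-like cells -6.22 ± 0.59. The neutrophil-like call of Rpl39l was lost without OE-MLKL 1 and also with TMM. Its partner Rpl39, a short protein of the peptide tunnel, stood at 0.862 to 1.65% of RP UMIs.

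The most abundant members changed rank between classes. Rpl13, a large-subunit protein, gave the most UMIs over the 4 classes, 2.96% of RP UMIs, followed by Rps29 with 2.59%. Rpl13 ranked first in T cell-like (2.67% ± 0.0739) and cancer-like cells (3.07% ± 0.104, SD, n = 4) but stood at rank 10 in neutrophil-like cells, where Rps29 ranked first, as it did in macrophage-like cells (3.70% ± 0.163). Rpl13 was higher by 0.38 ± 0.06 in cancer-like and lower by -0.45 ± 0.07 in neutrophil-like cells, with no overlap of either class with the others.

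Members also varied with the library, some of them more than with the class. For each of the 79 more abundant members, its part of the RP total in a library was set against the mean of the 4 libraries in the same class. Rpl23a (ENSMUSG00000058546, chr11:78180932-78183584, minus strand), a large-subunit protein at the exit of the peptide tunnel, made up 0.606, 0.558, 0.868 and 1.07% of RP UMIs in cancer-like cells, and 0.606, 0.501, 0.884 and 0.993% in T cell-like cells. OE-MLKL 1 was the lowest and OE-MLKL 3 the highest in all 4 classes. Averaged over classes the departures were -0.24, -0.46, 0.27 and 0.43 on the log2 scale, a range of 0.88, whereas its largest class contrast was 0.12.

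Rps15, a small-subunit protein, followed the same order of libraries, with mean departures of -0.13, -0.46, 0.23 and 0.36. Rpl31 and Rpl5 were also lowest in OE-MLKL 1 and highest in OE-MLKL 3 on average, and Rps27 went the other way, at 0.36 in OE-MLKL 1 and -0.26 in OE-MLKL 3. Rpl22l1 was highest in OE-Vector 1 in all 4 classes, with a mean departure of 0.36. Rps27 and Rpl22l1 differed more between classes, with largest class contrasts of 1.52 and 0.98 against ranges over libraries of 0.62 each. Across the 79 members, 9 had a range over libraries of at least 0.5, and the median range was 0.28. The ranges of other genes are not given here, so these values are not read as particular to the family.

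Members departed in one direction in all 4 classes at 54.4, 69.6, 62.03 and 62.03% of those in a library, beside 44.6, 49.0, 48.0 and 71.1% of 3551 other genes with at least 100 CPM somewhere, taken on the CPM scale. The share of members was the higher one in 3 libraries and the lower one in OE-MLKL 3, and the scales of the compared shares differ. OE-Vector 1 lay above all OE-MLKL libraries in all 4 classes for 6 members and below them for 4, or 7.59 and 5.06%, beside 4.93 and 2.14% of the other genes on the same scale. On the CPM scale these counts of members were 0 and 3, beside 4.25 and 7.46% of the other genes, so that the members lay above the background on one scale and below it on the other. For Rpl23a 82.6% of the windows near the end of the gene recurred in other annotated genes, for Rps15 17.4%, and for Rpl31 and Rpl5 none did. The classes of a library came from the same tumour, and the tumour, its handling and its sequencing cannot be told apart.

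**Figure D4:**
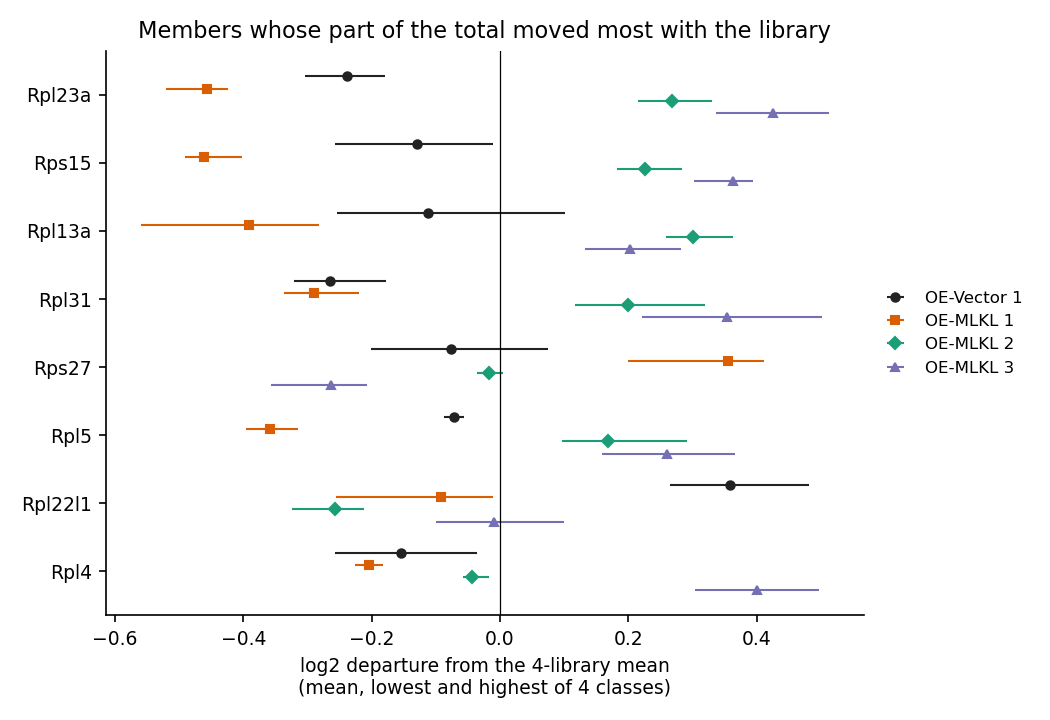
log2 departure of a member's part of the RP total from the mean of 4 libraries in the same class (horizontal axis), for the 8 members with the widest range; symbols are the mean over 4 classes and lines run from the lowest to the highest class. Rpl23a and Rps15 are low in OE-MLKL 1 and high in OE-MLKL 2 and 3 in every class, and Rpl22l1 is high in OE-Vector 1.

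The comparison of the study set OE-MLKL against OE-Vector in each class. No member passed edgeR's quasi-likelihood test with Benjamini-Hochberg adjustment in any of the 4 classes, where 0% of 13100 genes tested were called in either direction in neutrophil-like cells, 0% of 13944 in macrophage-like cells, 0% higher and 0.00568% lower of 17601 in cancer-like cells, and 0% higher and 0.0336% lower of 11891 in T cell-like cells. At an unadjusted p under 0.05 there was 1 member in neutrophil-like cells, where 406 genes were higher and 673 lower, and 1 in T cell-like cells, where 307 were higher and 328 lower. Without OE-MLKL 3 these became 20 members higher and 1 lower in neutrophil-like cells (12.9 and 16.2% of all genes) and 9 higher in T cell-like cells (8.96%). No member was called with DESeq2 or limma-voom either, although the share of all genes that they called is not given here. The median member was higher by 0.27 on the log2 scale in neutrophil-like, 0.09 in macrophage-like and 0.17 in T cell-like cells and lower by -0.16 in cancer-like cells, beside medians over all genes of 0.04, 0.04, 0.02 and 0.03.

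The members with the smallest unadjusted p are given as values. In neutrophil-like cells Rpl3l had -1.60 ± 0.37 (SE; edgeR adjusted p = 0.57), all OE-MLKL libraries lying below OE-Vector 1, and Rpl6 had 0.70 ± 0.44. In macrophage-like cells Rps27l had -0.60 ± 0.29 and Rpl3l -1.04 ± 0.93. In cancer-like cells, Rpl22l1 had -0.66 ± 0.43 and Rps2 -0.67 ± 0.47. This class is a marker gate that does not separate the injected cells from host epithelium. Rpl22l1 stood at 1047, 857, 682 and 566 CPM there, so that OE-Vector 1 was above all OE-MLKL libraries. In T cell-like cells Rpl39l had 4.17 ± 1.45 on 1, 2, 15 and 24 UMIs.

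Single libraries changed these calls. Without OE-MLKL 3, Rpl3l was called lower in neutrophil-like cells (-1.73 ± 0.32, edgeR adjusted p = 0.021), in a fit that called 3.25% of all 12541 genes higher and 7.23% lower, where the full set of libraries called 0. The median over all tested members was then 0.51. Without OE-MLKL 1, Rpl39l was called higher in T cell-like cells (4.63 ± 1.26, edgeR adjusted p = 0.0307), where 0.269% of all genes were. The median in cancer-like cells changed sign without OE-MLKL 3, to 0.04. The fit takes the spread among OE-MLKL libraries as that of the lone OE-Vector library too.

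**Figure D5:**
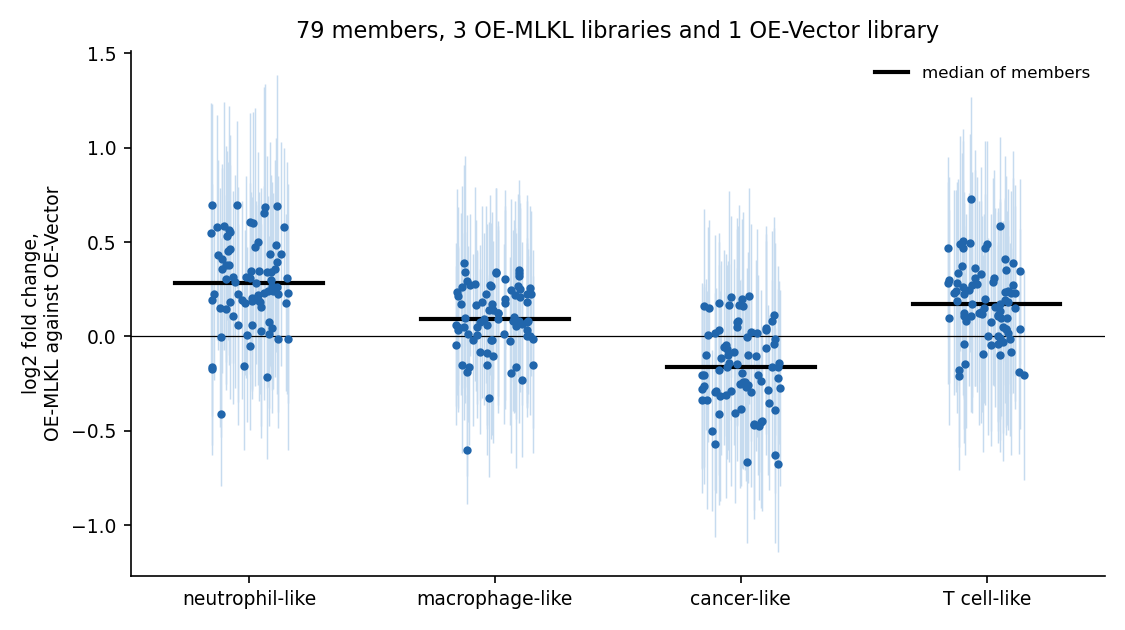
log2 fold change of 79 members between 3 OE-MLKL libraries and 1 OE-Vector library after TMM (vertical axis) in each class (columns), with lines of 1 SE and the median of these members as a black bar. The lines of most members cross 0, and the members of a class lie near their median, which is above 0 in 3 classes and below 0 in cancer-like cells.

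Whether the OE-MLKL contrast differed between classes was tested as an interaction. No member was called, where 0.118% of 16071 genes were, and 3 members, Rpl15, Rpl34 and Rpl26, had an unadjusted p under 0.05, as 1489 of all genes did. Without OE-MLKL 3 this became 23 members, beside 25.1% of all genes. Without OE-MLKL 3, 2 members were called, Rps27l (edgeR adjusted p = 0.014) and Rpl34 (edgeR adjusted p = 0.0407), among 82 tested, where that fit called 8.87% of all genes.

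Genes that work with the family were taken from lists. The 4 RP genes outside the symbol rule divided, since Fau, which encodes a ubiquitin-like protein fused to a small-subunit RP, was higher in neutrophil-like cells by 1.70 ± 0.08 relative to the RP total, close to Rps27 in size, while Rack1, a scaffold on the small subunit, was lower by -0.61 ± 0.09. In neutrophil-like cells 3 of these 4 were higher and 1 lower, against 1 and 3 with TMM. Of 13 translation factors and other mRNAs with a terminal oligopyrimidine tract, 4 were higher and 6 lower in neutrophil-like cells (median -0.21), where 69.5 and 6.96% of all genes were, and with TMM 0 were higher and 13 lower (median -1.39, with 33.4 and 38.2% of all genes called). In cancer-like cells 8 were higher and 0 lower (median 0.32, with 28.6 and 45.8% of all genes called), and with TMM 12 and 0 (39.5 and 36.2%). The subunits Eif3e (0.93 ± 0.08) and Eef1g (0.91 ± 0.12) had the largest values there.

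Of 18 ribosome biogenesis genes, 8 were higher and 0 lower in cancer-like cells, where 28.6 and 45.8% of all genes were, and 17 and 0 with TMM (39.5 and 36.2% of all genes). In T cell-like cells 5 were higher and 6 lower (13.5 and 65.4% of all genes), but 14 and 0 with TMM (32 and 34.7%). In macrophage-like cells 1 was higher and 11 lower (median -0.36), where 24 and 40.1% of all genes were, and 3 and 7 with TMM (32 and 31.3%), with Nop58 (-0.94 ± 0.14) and Nop56 (-0.91 ± 0.12), proteins of the particle that methylates ribosomal RNA, as the largest falls. Of 75 mitochondrial RP genes, 49 were higher and 6 lower in neutrophil-like cells (median 0.46) and 4 were higher and 44 lower in T cell-like cells (median -0.39), beside medians over all genes of 1.03 and -0.77 and shares of 69.5 and 6.96% of all genes in the former and 13.5 and 65.4% in the latter. With TMM both turned, to 6 higher and 51 lower in neutrophil-like cells (median -0.72) and 47 higher and 4 lower in T cell-like cells (median 0.32), where the medians over all genes were -0.15 and -0.06 and the shares 33.4 and 38.2%, and 32 and 34.7%. Of 7 regulators such as Myc, Mtor and Larp1, 6 were higher and 1 lower in neutrophil-like cells (median 1.21), where 69.5% of all genes were higher, and 2 and 2 with TMM (median 0.03).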

How the data were processed

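Single-cell 3′ libraries of 6 samples were labelled, of which 4 had a count matrix in use here. The deposited values were unnormalised UMI counts from the authors' matrices, with empty barcodes kept. The file headers name Cell Ranger 7.1.0, the submitters' processing notes Cell Ranger 2.1.1 and mm10, and the study's methods a further version, so that the version used is not settled, and whether introns were counted is not given in the sources used here. Barcodes with at least 500 UMIs, over 200 genes, under 10% mitochondrial and at most 5% haemoglobin UMIs were kept. Cells were gated by summed markers per 10000 UMIs (neutrophil 150, macrophage 100, NK 20, others 10) and by 2 or 3 distinct markers. The gates were set after marker levels had been seen. Cells of several gates were left out, and no doublet caller was run. Because cells are not replicates, the UMIs of each class were added up within a library.

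Class contrasts used edgeR 4.0.16 (quasi-likelihood, library block, library size set to RP UMIs), and OE-MLKL against OE-Vector used TMM and filterByExpr, both with Benjamini-Hochberg adjustment at 0.05. DESeq2 1.42.0, limma 3.58.1, R 4.3.3 and Python 3.11.15 were also used. The scripts were tested on simulated data with a spread set in advance. There the OE-MLKL fits recovered 30% of 4-fold changes in neutrophil-like cells and 48% in each of the other main classes. The interaction fit recovered 19% of them. The absence of calls in these fits thus says little about smaller changes. Positions are from GENCODE vM21 (GRCm38), and shared sequence was counted as 90-base windows in the last 400 bases. The study's methods give 3 tumours per group, and the SD is over libraries. Members, lists and tests were chosen with earlier results of these data known. Named genes were up to 4 largest rises and 4 largest falls per class contrast, the 2 smallest unadjusted p per class for OE-MLKL where none passed, the paralogs and partners, the 3 most abundant members, the stalk genes and Rpsa. Some genes that this rule takes are not reported here. Other genes named for not overlapping, for moving with the library or from lists were chosen after their values were seen.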

Additional observations from a re-analysis of the deposited data

How the results depend on the processing

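No paired analysis was possible because only replicate number 1 is shared by the groups among the libraries with a count matrix. The mean shares moved by less than 1 SD over libraries under every alternative run on cells, gates and denominators. The differences between groups moved by less than 1 SD over the OE-MLKL libraries. That SD was larger than the difference itself in each main class. A change of sign could pass this limit, so it does not show that the differences held. The counts of members relative to the RP total changed with TMM to 2 higher and 77 lower in neutrophil-like, 42 and 3 in macrophage-like, 50 and 7 in cancer-like and 76 and 2 in T cell-like cells, because that scale keeps the share of the family. Without the library block they were 7 and 2 in macrophage-like and 11 and 11 in T cell-like cells. Leaving out 1 library gave 8 to 14 higher and 6 to 13 lower in macrophage-like cells, 0 to 1 lower for OE-MLKL against OE-Vector in neutrophil-like cells, 0 to 1 higher in T cell-like cells and 0 to 2 in the interaction. Shares of all genes called without the block, or in class contrasts without 1 library, are not given here. These changes are therefore not read as ones of the members. The cause was not tested. Of the values of genes that the naming rule takes, 1 reversed, Rpl37 in T cell-like cells (0.0769 with TMM). In 9 a call was lost, in 3 one was gained, and 371 kept both sign and call status. Of these 371, 302 were class contrasts of genes taken because they passed there, which favours keeping a call. The other 69 were OE-MLKL contrasts, where there was no call to keep. Rpl39l and Rpl3l rest on few UMIs.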
